A study of Homo sapiens with 4 samples.

Results

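Strong contacts of ribosomal DNA that were present in untreated K562 cells and overlapped no region found after hemin treatment made up 6156 regions. A region belonged to this set when the deposited repeat-filtered list of untreated contacts gave it a mean of at least 100 reads and when it shared not even 1 base with any region of either hemin library. The set was therefore selected on measured values, the untreated reads and the absence of hemin reads, and both are described below without a test. The members were 6156 of 7617 untreated regions at or above the limit (80.8%, 95% Wilson interval 79.9 to 81.7), of 20608 repeat-filtered untreated regions of any strength and of 39482 repeat-filtered regions in both groups. Among all 20608 untreated regions 82.7% had no overlap with a hemin region, so the share among strong regions was close to the background share.

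The contacts were mapped by 4C (circular chromosome conformation capture), in which chromatin is fixed, cut, ligated and sequenced from 1 viewpoint, here in the intergenic spacer of the human rDNA unit. The cells were K562, an established human erythroleukemia line with altered chromosome numbers, kept untreated (2 libraries) or given 50 µM hemin for 108 h (2 libraries), which drives them toward the erythroid lineage. Both groups were the same line, and the agent is the difference that the labels name. No culture time is given in the labels for the untreated cells. The libraries held 31721628 and 34000240 reads in untreated cells and 19548906 and 20577487 reads after hemin, so the groups differed in depth as well.

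Ribosomal RNA genes lie in tandem arrays on the short arms of the acrocentric chromosomes, where RNA polymerase I transcribes them and the nucleolus forms. Stretches of other chromosomes come close to the nucleolus, often gene-poor or silent chromatin, and a 4C library records such a neighbour as a restriction fragment ligated to rDNA. The first enzyme, EcoRI, cuts GAATTC and fixes the ends that can be ligated to the viewpoint. The second enzyme, FaeI, cuts CATG and sets the far end of the captured piece.

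Below, 8 regions are printed because they show what a member is physically: a short stretch of covered sequence that starts or ends at an EcoRI cut. They are the most frequently read member, strong members in introns of PTPRD, SLC24A2 and BCL2, a member that fills a whole EcoRI fragment, and 3 beside or in genes of interest for K562 and for rDNA. All are hg38 coordinates, forward strand, 5′ to 3′, with the bases as deposited. Capitals mark EcoRI (GAATTC) and FaeI (CATG) sites.
Most reads, between genes, chr15:85990092-85990133: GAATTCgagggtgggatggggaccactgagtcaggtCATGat
PTPRD intron, chr9:8507691-8507726: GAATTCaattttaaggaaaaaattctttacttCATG
SLC24A2 intron, chr9:19634005-19634081: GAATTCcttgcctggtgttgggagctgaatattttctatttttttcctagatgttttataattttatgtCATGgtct
BCL2 intron, chr18:63229916-63230062: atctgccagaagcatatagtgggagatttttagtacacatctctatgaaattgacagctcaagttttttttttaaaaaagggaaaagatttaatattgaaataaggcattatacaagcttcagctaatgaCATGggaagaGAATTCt
Whole EcoRI fragment, MIR3681HG intron, chr2:12486722-12486824: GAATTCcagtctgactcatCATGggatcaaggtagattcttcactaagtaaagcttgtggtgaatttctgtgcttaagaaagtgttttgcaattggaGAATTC
BCL11A intron, chr2:60519741-60519888: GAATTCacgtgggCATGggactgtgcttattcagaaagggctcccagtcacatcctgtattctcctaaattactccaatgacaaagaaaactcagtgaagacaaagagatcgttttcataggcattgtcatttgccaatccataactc
Upstream of KLF1, chr19:12889314-12889390: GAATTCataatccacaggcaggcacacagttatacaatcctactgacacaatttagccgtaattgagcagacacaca
BAZ2A intron, chr12:56616550-56616628: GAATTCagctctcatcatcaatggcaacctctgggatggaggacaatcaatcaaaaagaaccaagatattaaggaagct

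Members carried this structure almost throughout. An EcoRI site lay inside 5508 of the 6156 (89.5%), at the left end in 2693, at the right end in 2631, at both ends in 7 and away from both ends in 177. Counting sites up to 100 bases away gave 5707 (92.7%). Of the 648 without a whole EcoRI site, 472 held a FaeI site and 176 held neither. The median length was 79 bases (quartiles 77 and 85, range 19 to 391), the median GC content was 38.0%, and the sequence occurred at exactly 1 place in hg38 for 5738 members (93.2%). Strong untreated regions that did meet a hemin region, 1461 in number, were less uniform: 84.1% had an EcoRI site within 100 bases, 21.7% had it away from both ends against 2.88% of the members, and 65.6% had a sequence found at 1 place. The 6074 strong regions present after hemin and absent from both untreated libraries, selected by the mirror of the same rule and called hemin-only here, were like the members, at 94.1%, 2.16% and 96.6%. No test compares these sets, because the rule that formed them used both groups.

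Most members had a weaker companion on their own EcoRI fragment. A further region of the same library lay on that fragment for 3823 members (62.1%) in untreated replicate 1 and for 4192 (68.1%) in replicate 2. The strongest companion had a median of 11.1% and 11.0% of the member's reads and lay a median of 168 and 147 bases away. The pair of members farthest from any hemin region shows a FaeI-side piece beside the EcoRI end of 1 fragment and how a companion can enter the set.
FaeI side, near LBX1, chr10:101200227-101200290: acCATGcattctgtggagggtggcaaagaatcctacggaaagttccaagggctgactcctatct
EcoRI side, near LBX1, chr10:101200326-101200404: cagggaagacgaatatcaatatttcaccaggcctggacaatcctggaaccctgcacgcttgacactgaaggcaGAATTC

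In replicate 1 these stretches were joined into a single region of 378 reads, which was credited to both. In replicate 2 they were separate, with 36 reads on the FaeI side and 288 on the EcoRI side. Only the FaeI side thus differed more than 2-fold between the libraries. Most members that disagreed between replicates had this form: 220 members (3.57%) differed more than 2-fold after scaling to depth, 212 of them with more reads in replicate 1, 206 without an EcoRI site inside, and 184 (83.6%) were joined to a neighbour in the library with more reads and split from it in the other. The 6156 members lay on 5882 EcoRI fragments. When all reads on a fragment were summed, 31 of 5882 fragments (0.527%) differed more than 2-fold and Pearson's r of log2 reads between the libraries was 0.970, against 0.787 over single members. These coefficients describe regions that share 2 libraries and the same mapping, and carry no test.

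Over all members the libraries were close. Both untreated libraries reached 100 reads in 5816 members (94.5%), Spearman's rho over all 6156 was 0.893, and the quartiles of the log2 ratio of depth-scaled reads, replicate 2 over replicate 1, were -0.15 and 0.06. The median variance between the libraries was 2.42 times that expected from counting alone. In 38 members the weaker library had fewer than 10 reads. The largest of these, chosen after its values were seen, was a region on the Y chromosome with 2761 and 4 reads whose sequence occurs at 260 places in hg38, and a region in LINC00486 on chromosome 2 had 2416 and 4 reads and a sequence at 7 places.

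**Figure D1:**
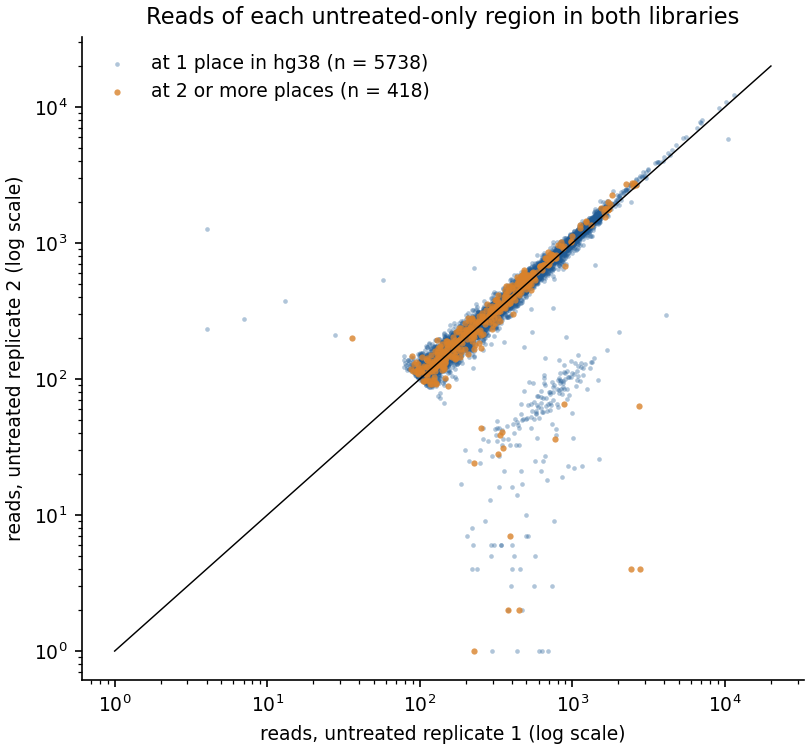
Reads of each of the 6156 members in untreated replicate 1 (x axis) and replicate 2 (y axis), both on log scales, with the line of equal reads; orange points have a sequence found at 2 or more places in hg38 (418 members). The main band follows the line, and a second cloud below it holds members with several times more reads in replicate 1, most of them joined to a neighbour there.

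Members had between 100 and 11780.5 mean reads, with a median of 359.375 and quartiles of 196.5 and 656.625. In RPM, reads per 1000000 reads of the library, the limit of 100 corresponded to 3.04 in untreated cells and to 4.98 after hemin. Reads summed over the members were 10.1% and 9.48% of all reads of the untreated libraries, and by the rule 0 reads of the hemin libraries. Set against the reads outside 10 kb of a viewpoint copy, the same sums were 20.4% and 19.2%. A region joined over several members enters these sums once for each, so they can overstate the reads held. A count of 0 allows up to 3 reads per library, or 0.153 and 0.146 RPM. The intervals and floors given here cover counting error only, since PCR reads without molecular identifiers are not independent molecules.

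Strength and absence after hemin were related only at the top of the range. Among untreated regions of 100 to 200 reads 82.1% lacked a hemin region, and the share was 86.2% from 200 to 500 reads, 82.1% from 500 to 1000 and 76.2% from 1000 to 2000. It fell to 29.7% of 175 regions between 2000 and 5000 reads and to 11.7% of 94 regions at 5000 or more. The same shape was present outside the 5 acrocentric chromosomes, where 40.6% of 96 and 20.5% of 44 regions in the top classes lacked a hemin region. Of the 54 untreated regions at or above 10000 reads, 2 were members. Measured at the same depth-scaled level, hemin-only regions outnumbered members at 5 RPM (6056 against 5065), at 10 RPM (4045 against 3312) and at 20 RPM (1810 against 1537). At higher levels the order changed, and 791 members and 736 hemin-only regions reached 30 RPM, while 149 and 81 reached 50 and 21 and 38 reached 100.

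**Figure D2:**
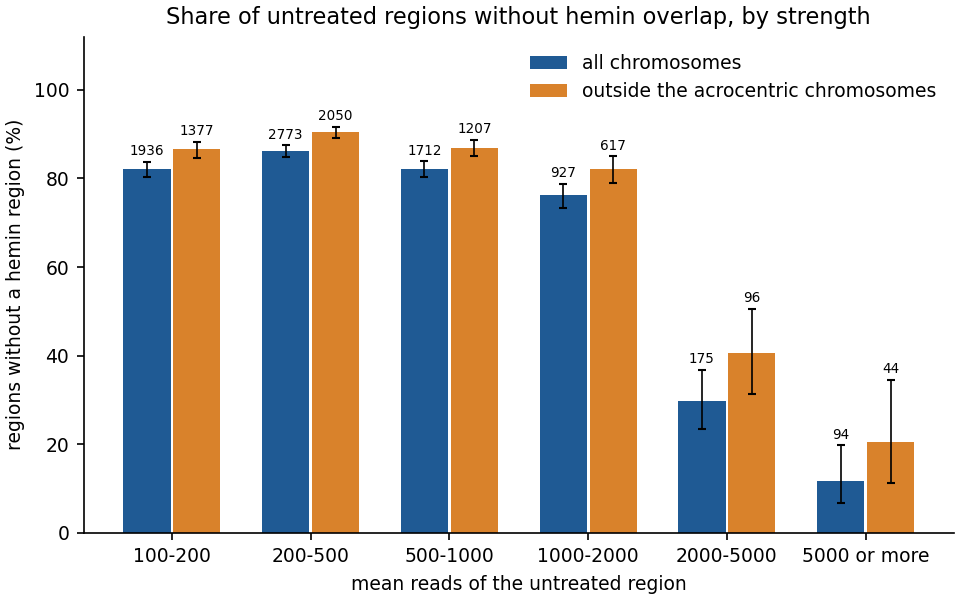
Share of repeat-filtered untreated regions without any overlapping hemin region (y axis, percent) by their mean reads (x axis), over all chromosomes (blue) and without the 5 acrocentric chromosomes (orange). Bars start at 0, error bars are 95% Wilson intervals and the number of regions stands above each bar; the share is above 70% up to 2000 reads and 29.7% and 11.7% in the top classes.

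The strongest members stood far above the floor in both libraries. The region between genes on chromosome 15, nearest to AGBL1 at 89.7 kb, had 11401 and 12160 reads in the untreated replicates, at least 2396-fold higher in RPM than the hemin floor. The SLC24A2 intron on chromosome 9, in the gene of a potassium-dependent sodium and calcium exchanger, had 10156 and 10964 reads, at least 2147-fold above it. Another, on chromosome 11 in the intron of an unnamed gene (ENSG00000286044), had 9079 and 9769 reads. In each of these the replicates were nearly equal in RPM, and the nearest hemin region was 14.9, 7.24 and 178 kb away.

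The next were in or near genes of varied function. Introns of SLC17A1, a phosphate and urate transporter, and of MYO1E, an unconventional myosin, had 6997 and 7650 reads and 6562 and 7042 reads. The intron of BCL2, the founding inhibitor of apoptosis, had 5515 and 6057 reads. The PTPRD intron, in the gene of a receptor tyrosine phosphatase, had 4774 and 5229 reads, and the complete EcoRI fragment of 103 bases in MIR3681HG had 4528 and 4854. Further members among the 20 with the most reads lay in GPHN, RFX7, SELENON, CHRNA7, MUC19, PCMTD1 and LINC02424, and the lowest of the 20 was at least 744-fold above the hemin floor. Of the 20, 2 lay side by side in LINC02424 on chromosome 12 and another pair in GPHN on chromosome 14, so these 20 regions are not 20 separate contacts.

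At the other end, the limit cut through a continuous range. The 5 regions just inside had a mean of 100 reads, such as a DHX29 intron with 83 and 117 and a PTPRD intron with 98 and 102. The 5 just under it had 99.5, such as a CACNA1C intron with 104 and 95 and a PTPRJ intron with 85 and 114. All 10 were picked among regions that overlap no hemin region, so their 0 hemin reads follow from the choice. Their mean reads did not differ by more than the gap between replicates.

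Members were mapped to all 24 chromosomes of hg38, and their density differed widely between them. Per 1000 EcoRI sites of hg38, counted without the repeat filter, the genome held 7.26 members. Chromosome 21 held 33.6 (393 members), chromosome 22 held 28.8 (275), chromosome 15 held 17.6 (388), chromosome 18 held 17.5 (454), chromosome 9 held 14.2 (463) and chromosome 20 held 11.3 (181). The first 3 of these carry rDNA arrays, whereas chromosomes 18, 9 and 20 do not. The other acrocentric chromosomes were nearer to the genome value, 9.04 on chromosome 14 and 7.58 on chromosome 13. The lowest density was on the X chromosome, 1.09 (46 members), followed by 1.55 on the Y chromosome and 3.07 on chromosome 3. Of the 11 members mapped to the Y chromosome, 7 had a sequence at 2 or more places, so their place is uncertain. Whether these cells carry a Y chromosome was not examined.

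Hemin-only regions were spread over the chromosomes in nearly the same way. They were densest on chromosomes 21 (25.8 per 1000 EcoRI sites), 22 (18.8), 15 (14.9), 18 (13.3) and 9 (12.4), the same leading 5 as for the members. Over 24 chromosomes Pearson's r between both densities was 0.979 and Spearman's rho 0.945, as a description of chromosomes that share EcoRI sites, mapping and the chromosome copy number of K562. Members were the denser set on 11 of the 24. Reads were not corrected for copy number, and its part in these densities was not tested.

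**Figure D3:**
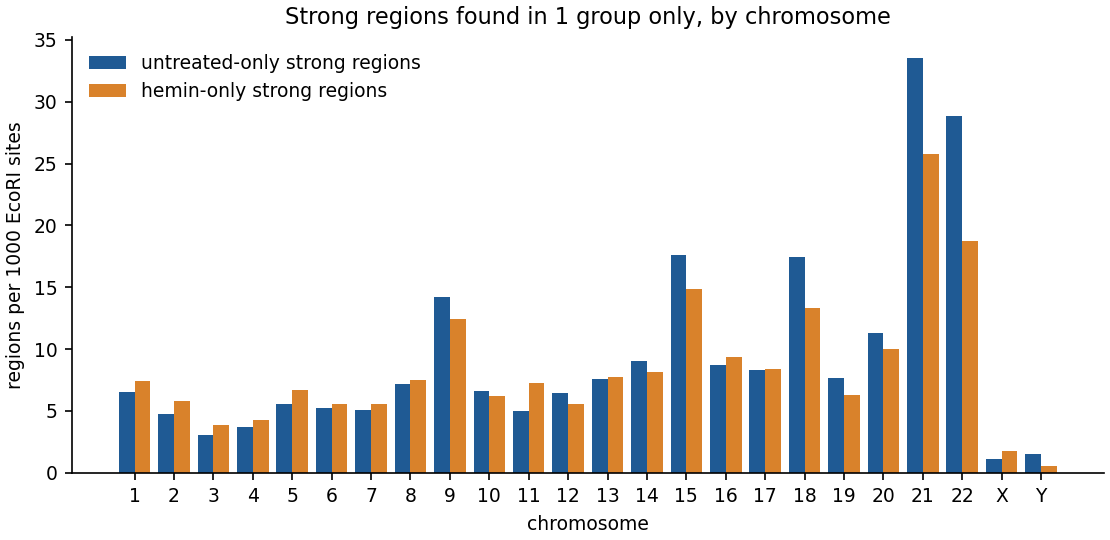
Untreated-only strong regions (blue) and hemin-only strong regions (orange) per 1000 EcoRI sites (y axis) on each chromosome (x axis). Both sets are highest on chromosomes 21 and 22, then on 15, 18 and 9, and lowest on X and Y.

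Chromosomes differed in the share of strong untreated regions that overlapped a hemin region. Members were 19.0% of the strong untreated regions mapped to the Y chromosome (11 members and 47 shared regions, 95% interval 10.9 to 30.9). They were 97.9% of those on the X chromosome (46 and 1). Members were 51.3% of the strong untreated regions on chromosome 21 (95% interval 47.8 to 54.8) and 56.6% on chromosome 22 (52.1 to 60.9), against 80.8% in the genome. Chromosome 4 had 70.8% and chromosome 20 had 76.1%, while chromosomes 6, 8 and 11 had 95.4%, 95.7% and 95.7%. The 5 acrocentric chromosomes held 24.4% of the members, 20.4% of hemin-only regions and 49.4% of the shared strong regions. Without them, members were 86.3% of the strong untreated regions (4652 of 5391).

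Most members lay some kilobases away from the nearest hemin region. The median distance was 23.1 kb (quartiles 7461 and 59157 bases, range 2 bases to 627 kb). Hemin regions stood on average 1 per 48.2 kb of genome, a mean spacing that is not a distance to the nearest region. A hemin region lay within 100 bases of 0.699% of the members, within 2.5 kb of 11.1%, within 10 kb of 30.3% and within 100 kb of 87.6%. It lay on the very same EcoRI fragment for 384 members (6.24%, interval 5.66 to 6.87), and for 1295 of the 1461 shared regions (88.6%). The median distance to a hemin region that was itself strong was 103 kb. Hemin-only regions were a median of 32.4 kb from the nearest untreated region, with 8.36% within 2.5 kb and 4.94% with one on the same fragment.

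**Figure D4:**
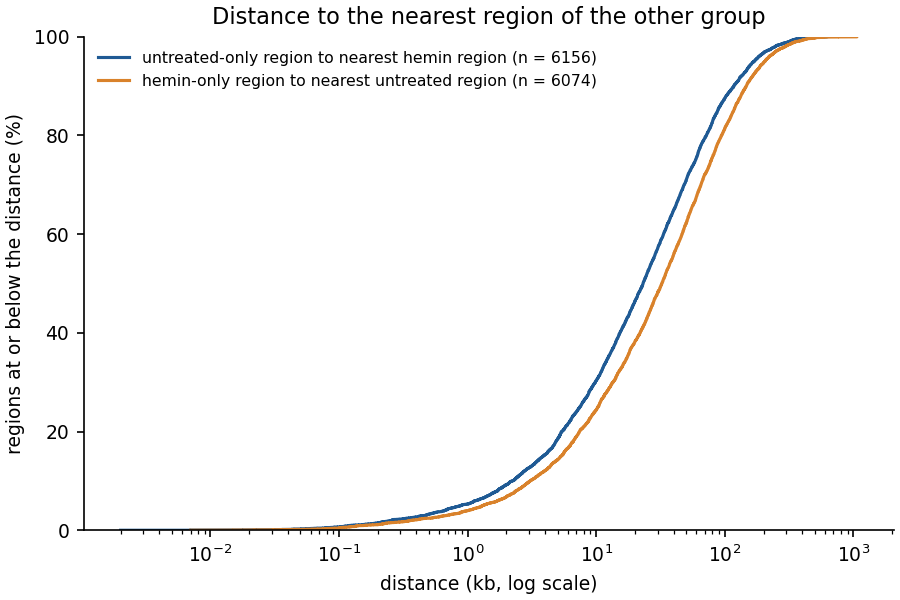
Percentage of regions (y axis) whose nearest region of the other group lies at or below a given distance (x axis, kb, log scale), for 6156 untreated-only strong regions (blue) and 6074 hemin-only strong regions (orange). The curves run in parallel with medians of 23.1 and 32.4 kb.

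The members closest to a hemin region were adjacent to it without sharing a base. An FHL2 intron with 871 and 880 untreated reads and a PABPC1 intron with 360 and 358 each ended 7 bases from a hemin region, and a region of chromosome 21 with 1777 and 1960 reads ended 18 bases from one. The closest of all, 2 bases away, had a sequence at 5 places in hg38. The BAZ2A member printed above lay 234 bases from a hemin region. BAZ2A (TIP5) is the large subunit of the nucleolar remodelling complex that silences rDNA repeats.

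At the far end, 202 members (3.28%) had no hemin region within 200 kb. The farthest were the pair near LBX1 on chromosome 10, at 627 kb, a homeobox gene of muscle and spinal cord. The next were 2 members in HDAC2-AS2 on chromosome 6, at 587 and 552 kb, with 606 and 617 reads and 284 and 338 reads.

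The surroundings of the members were dense in contacts of both groups. Between 10 and 50 kb from a member the untreated libraries had 45.1 and 43.8 regions per Mb and the hemin libraries 36.5 and 38.5, against library averages of 17.3 and 17.1 and of 16.01 and 16.9. All 4 libraries were thus at 2.27 to 2.61 times their own average there. Between 500 and 1000 kb the multiples were 2.02 and 2.02 in untreated cells and 1.83 and 1.81 after hemin. The groups parted within 2.5 kb of the member, the member itself left out, which is where the companions on the same fragment lie. There the untreated libraries had 186 and 199 regions per Mb and the hemin libraries 41.3 and 41.1. The flanks share the contrast that the rule used, so this gap is a description and was not tested. Median RPM from 100 to 500 kb were 66.0 and 64.9 in untreated cells and 74.6 and 75.9 after hemin, a hemin to untreated ratio of 1.15. The means over all members ran the other way, with 966 and 968 RPM per Mb in untreated cells and 928 and 923 after hemin. Around hemin-only regions the medians were 53.6 and 52.0 in untreated cells and 64.9 and 67.0 after hemin. Within 2.5 kb of hemin-only regions the gap was reversed, with 138 and 159 regions per Mb after hemin and 29.0 and 28.2 in untreated cells.

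The density was near the library average around members that stood alone. Around the 2925 members with no other member within 100 kb, a selection that itself thins out untreated regions there, hemin libraries had 1.02 and 1.04 times their average from 10 to 50 kb and 1.01 and 1.02 times from 100 to 500 kb. Around hemin-only regions, hemin libraries stood at 1.70 and 1.67 times and untreated libraries at 1.71 and 1.70 times their average from 10 to 50 kb.

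Counted in fixed windows, members and hemin-only regions became more alike as windows grew. Of 4782 windows of 0.1 Mb with a member, 25.8% also held a hemin-only region, where 16.9% of all 29465 windows did, and Spearman's rho between the counts was 0.114. In 1-Mb windows 1761 of 2157 with a member (81.6%) held both, against 76.7% of all 2970, and rho was 0.349. In 314 windows of 10 Mb rho was 0.722 and Pearson's r 0.877, and 273 windows outside the acrocentric chromosomes gave 0.702 and 0.887. The number of EcoRI sites per 10-Mb window correlated with members at a rho of 0.0884. Windows share mapping and copy number, and these values carry no test.

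**Figure D5:**
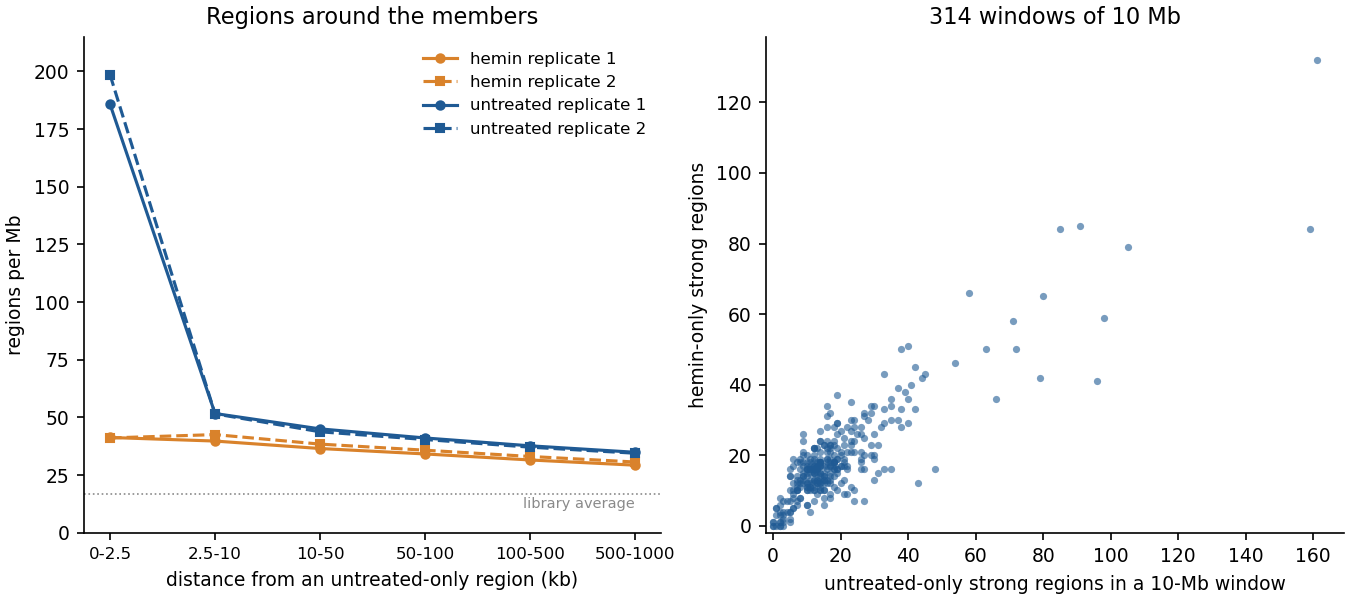
Left, regions per Mb (y axis) at 6 distances from a member (x axis, kb), the member itself left out, in the 2 untreated (blue) and 2 hemin (orange) libraries, with the mean library average dotted. Right, hemin-only against untreated-only strong regions in 314 windows of 10 Mb; hemin libraries follow the untreated ones beyond 2.5 kb, and windows rich in one set are rich in the other.

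Members gathered in clusters. Joining members with gaps of at most 100 kb gave 4000 groups, of which 1075 had 2 or more members and held 3231 of them (52.5%), and 2925 members stood alone. The same step put 46.9% of hemin-only regions and 71.3% of shared regions into groups of 2 or more. The largest cluster, 80 members over 1809 kb at chr18:24671824-26480508, covered ZNF521, SS18, TAF4B, KCTD1 and PSMA8. ZNF521 encodes a zinc finger protein of early blood progenitors and SS18 a subunit of the BAF remodelling complex. Its members had 41277 and 42894 untreated reads in sum, and the same interval held 44 shared and 37 hemin-only strong regions.

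The next clusters had the same mixed makeup. A cluster of 40 members at chr9:19492716-20580037 covered SLC24A2 and MLLT3, a subunit of the super elongation complex and a fusion partner in leukemia, with 17 shared and 19 hemin-only regions inside. A cluster of 36 at chr21:40676286-41435816 covered part of DSCAM together with BACE2, FAM3B, MX1 and MX2, with 8 shared and 21 hemin-only regions. A cluster of 17 at chr9:16370442-16867139 lay over BNC2, a zinc finger gene, with 7 and 6.

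A cluster of 20 at chr13:17518204-17903308 was of another kind. It covered no protein-coding gene, contained 6 shared and 0 hemin-only strong regions, and all 20 of its members had a sequence found at 2 or more places in hg38, where none did in the 4 clusters named before it. Its members had 5536 and 5951 untreated reads, and all hemin regions in the interval, 34 and 35 in number, had 171 and 223 reads. Reads of a sequence with several copies cannot be assigned to 1 of them, so the place of these members is uncertain. The same 1-Mb window, chr13:17000001-18000000, was the richest in members among windows without a hemin-only region. The next such window, chr22:14000001-15000000, had 12 members, and both held many EcoRI sites, 952 and 947. The windows chr13:52000001-53000000 and chr5:42000001-43000000, with 265 and 299 sites, had 8 members each and no shared strong region.

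The share of members in genes was higher than that of all EcoRI sites of hg38. Genes of GENCODE release 44 covered 3957 members (64.3%), protein-coding genes 2918 (47.4%), and 2199 (35.7%) lay between genes. The corresponding shares over all 847401 EcoRI sites of hg38 were 56.4% and 40.6%. The sites were not repeat-filtered as the members were, so these shares are over unlike sets. The part of the filter in the gap was not tested. The place was an intron in 3434 members (55.8%), a coding exon in 159, an untranslated region in 150 and an exon of a non-coding transcript in 214. Hemin-only regions had almost the same shares, 63.9% in genes and 47.3% in coding genes, while shared regions had 44.9% and 21.4%. Members outside coding genes were a median of 137 kb from the nearest.

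Widened by 2.5 kb on each side, 3617 of 62663 genes met a member (5.77%) and 3714 (5.93%) met a hemin-only region. For protein-coding genes the counts were 2064 of 20033 (10.3%) and 2112 (10.5%), with 687 genes in both. For lncRNA genes the shares were 6.12% and 6.37%. The coding share is the nearer background for the lists of protein-coding genes below. Of the 2064 coding genes 1520 had 1 member, 473 had 2 to 4 and 71 had 5 or more. Any hemin region, of any strength, was present in 58.4% of the first class, 81.4% of the second and 71 of 71 in the third, and the median gene length rose with the class from 98.4 to 238 and 635 kb. The 720 coding genes with no hemin region were shorter, with a median of 47.4 kb against 206 kb for the 1344 with one. The share without a hemin region over all coding genes is not given here.

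The genes with the most members were long, and all carried hemin-only regions too. PTPRD had 27 members and 19 hemin-only regions in 2299 kb, and its summed RPM were 1023 and 859 in untreated cells and 604 and 603 after hemin. DSCAM, a neuronal adhesion molecule gene, had 22 members and 12 hemin-only regions, with 1145 and 1119 against 903 and 888 RPM. ADAMTSL1 had 21 members and 28 hemin-only regions, with 962 and 938 against 814 and 803. These genes were ranked by regions that the rule required to be free of hemin reads, so their sums are a description only.

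ZNF521 was the densest of the leading genes, with 18 members on 83 EcoRI sites, 217 per 1000, where PTPRD had 40.5 and DSCAM 101. Its summed RPM were 508 and 504 in untreated cells and 438 and 420 after hemin. BNC2, with 16 members, had 584 and 606 against 249 and 260, the widest gap among the 10 leading genes. GPC5, a glypican gene with 16 members, had 611 and 611 against 585 and 550, and SYN3, a synapsin gene with 16, had 445 and 428 against 394 and 384. AQP4-AS1, a long non-coding RNA gene with 15 members, had 363 and 352 against 534 and 339, groups that overlapped, and CCDC171, with 14, had 414 and 409 against 323 and 322.

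RUNX1, the transcription factor required for definitive blood formation, had 15 members, all in introns and all with a sequence at 1 place. They were counted over the whole annotated span of the gene, 1217 kb with 357 EcoRI sites (42.0 members per 1000). Which of its transcripts cover each member was not examined. The strongest member of RUNX1, chr21:35810752-35810820, had 1303 and 1409 reads and lay 494 bases from a hemin region. The next, chr21:35613815-35613898, had 1264 and 1315 reads and lay 7.04 kb from one. The weakest had 111 and 119 reads. RUNX1 also held 9 hemin-only and 2 shared regions, and its summed RPM were 408 and 361 in untreated cells and 290 and 384 after hemin, groups that overlapped.

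Of the curated list of 35 erythroid and blood transcription regulators, 8 met a member (22.9%, over a background of 5.77% of all genes and 10.3% of coding genes) and 7 met a hemin-only region. Beside RUNX1 they were ERG, FLI1, BCL11A, KLF1, NFIA, ETV6 and MEIS1, named after their values were seen. ERG, an ETS factor on chromosome 21, had 5 intronic members, the strongest with 2874 and 3074 reads and 2.07 kb from a hemin region, and it held 5 hemin-only regions. Its summed RPM were 227 and 240 against 143 and 154.

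Several of these genes had almost all of their untreated reads in 1 member. FLI1, an ETS factor of megakaryocytes, had a member 90 bases beyond its annotated 3′ end with 1023 and 1038 reads, and the gene with its margins had 34.6 and 33.1 RPM in untreated cells and 2.404 and 2.138 after hemin. BCL11A, the repressor that silences fetal globin, had an intronic member with 1184 and 1197 reads (deposited mean 894.5), and the gene had 37.3 and 35.2 RPM against 2.05 and 2.14. KLF1, the master activator of erythroid genes, had a member 2113 bases upstream of its annotated start with 413 and 488 reads, and the gene with its margins had 13.2 and 14.5 RPM against 0 and 0 after hemin. The KLF1 member was at least 91.5-fold above the hemin floor and 62.3 kb from the nearest hemin region.

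The others were weaker or had hemin contacts elsewhere in the gene. ETV6 had an intronic member with 144 and 152 reads and no hemin read. MEIS1, a homeobox partner of HOX proteins, had a member with 144 and 218 reads and a hemin-only region. NFIA, a factor of erythroid and glial fate, had a member in a coding exon with 309 and 355 reads and 2 hemin-only regions, and the gene stood higher after hemin, at 60.3 and 66.1 RPM against 13.9 and 13.1.

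The other short lists gave few genes. Of 10 globin genes, HBE1 and HBG2 met members (20.0%) and none met a hemin-only region. However, the long annotated transcripts of HBE1 and HBG2 share the same 2 members, at chr11:5339339-5339372 (961 and 1092 reads) and chr11:5490035-5490113 (515 and 553 reads), inside the neighbouring olfactory receptor cluster. Of 33 genes of heme and iron handling, 3 met members (9.09%) and 5 met hemin-only regions (15.2%). Those with members were BACH1, IREB2 with 2, and ACO1 with 1 of 243 and 228 reads. BACH1, a repressor released from DNA by heme, had 4 intronic members of 117 to 681 reads over an annotated span of 437 kb. IREB2 and ACO1 encode the iron regulatory proteins, and ACO1 had no hemin read while BACH1 had 45.9 and 58.0 RPM after hemin and 108 and 108 before.

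Of 30 nucleolar and RNA polymerase I genes, 2 met members and 2 met hemin-only regions (6.67% each), and none met both. SIRT7, a nucleolar deacetylase that promotes rRNA synthesis, had a member in an exon of a non-coding transcript with 797 and 791 reads, 249 kb from the nearest hemin region. BAZ2A had the member printed above, with 462 and 517 reads. Of 17 genes of the small RNA pathway, AGO2 and PIWIL3, of the Argonaute family, met 1 member each. These members had 805 and 806 reads in AGO2 and 223 and 197 reads in PIWIL3. Hemin-only regions met 7 genes of the list, AGO2 and PIWIL3 among them. Summed RPM of AGO2 were 28.9 and 26.7 in untreated cells and 9.82 and 8.31 after hemin. PIWIL3 stood higher after hemin, at 15.19 and 17.01 RPM against 7.38 and 6.74.

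The lists of long genes were filled in both directions. Of 30 giant genes at common fragile sites, 26 met members and 25 met hemin-only regions, 22 of them both, and of 55 genes of neuronal adhesion and synapses 38 and 41 did, 29 of them both. Per 1000 EcoRI sites these lists held 10.1 and 7.93 members and 10.3 and 8.16 hemin-only regions, close to 8.39 and 8.27 over all coding genes. Single genes went either way. SYNE1, the giant nuclear envelope protein gene, had 3 members and 79.2 and 81.5 RPM against 0.102 and 0.0972 after hemin, and PCDH7, a protocadherin gene, had 2 members and 51.8 and 49.1 against 0 and 0. RBFOX1, a splicing factor gene, had 6 members and 18 hemin-only regions with 202 and 200 against 366 and 375, and CNTNAP2 had 6 and 8, with 58.2 and 58.0 against 177 and 175.

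The gene families named by symbol were met by both sets. For comparison, 5.77% of all genes and 10.3% of coding genes met members. Of 692 ZNF genes 53 (7.66%) met members and 60 met hemin-only regions, 10 of them both. Of 2294 LINC genes 237 (10.3%) and 233 did, of 870 olfactory receptor genes 24 (2.76%) and 22, of 1922 microRNA genes 38 (1.98%) and 35, and of 102 interleukin and receptor genes 7 (6.86%) and 8. Of 516 solute carrier genes 39 (7.56%) met members and 58 (11.2%) met hemin-only regions, and of 80 protocadherin genes 6 and 17 did. The lists were chosen with results of these data known, their genes differ in length, and no list was tested against the background.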

How the data were processed

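Per the labels and the study's methods, 4C libraries of untreated and hemin-treated K562 cells (2 biological replicates each) were trimmed with cutadapt 3.5 and aligned with BWA 0.7.17-r1188 to hg38; SAMtools 1.14 and bedtools 2.29.1 are named in the submitters' processing notes. The authors deposited, for each library, covered regions with raw read counts, in which mates are counted singly, and for each group a repeat-filtered list of regions found in both replicates, with a signal that is the mean of the reads of both. No removal of PCR duplicates is given in the sources used here. Where a region was joined in 1 library and split in the other, the deposited mean can credit the same reads to both pieces. Reads per library are given here for every region overlapping a member. Sums over members count a joined region once for each member that it overlaps.

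Members were found by overlap of at least 1 base with Python 3.11.15 scripts tested on simulated regions. EcoRI and FaeI sites and exact copies of each sequence were searched on both strands of hg38, indexed with samtools. Genes came from GENCODE release 44, widened by 2.5 kb. The members and lists were chosen with earlier results of these data known, so no test was made. Regions named are the 20 with most reads, the 5 nearest to and farthest from a hemin region, 5 on each side of the limit, the 5 largest clusters, the 10 genes with most members and up to 30 list genes with most reads. Some items that these rules select are not reported here. Depth was 31721628 and 34000240 reads in untreated and 19548906 and 20577487 in hemin libraries.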

Additional observations from a re-analysis of the deposited data

How the results depend on the processing

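The number of members, 6156, stayed within 1.5-fold under every alternative tried but one: a limit of 1000 mean reads left 769. Limits of 50 and 200 gave 7863 and 4566, counting a hemin region within 2.5 or 10 kb as shared gave 5475 and 4288, and scaling untreated reads to the hemin depth gave 5072. Leaving out single libraries gave between 6042 and 6317 members, a median distance to the nearest hemin region of 23.1 to 28.1 kb, 24.4 to 24.9% of members on acrocentric chromosomes, 68.4 to 68.8% within 2.5 kb of a gene and 92.6 to 93.7% with an EcoRI site within 100 bases. The last share was 87.5% at a limit of 50 and 93.8% at 200, 89.5% inside the region only and 95.9% within 500 bases. The share near a gene was 64.3% without widening and 75.97% with 10 kb, and the share in clusters was 24.3% with a gap of 20 kb and 96.3% with 1 Mb. The hemin to untreated ratio of reads around members was 1.21 over reads outside the viewpoint copies and 1.26 around members with no other within 100 kb. Pearson's r of log2 reads between replicates was 0.577 among members of at least 1000 reads. In these 15 values the cause was not tested beyond the setting itself. Among the 769 members of at least 1000 reads, Spearman's rho was 0.920 and 5 differed more than 2-fold. In 2 of them the weaker library had fewer than 10 reads. A further 2 alternatives were chosen after seeing the data: 5738 members had a sequence at 1 place and 5816 had at least 100 reads in each untreated library. Among the 10 leading coding genes, 59 of 60 counts of members stayed within 1.5-fold, and CCDC171 had 7 at a limit of 200. No paired analysis was possible because no result comes from a test. With 2 libraries a group and unequal depth, weak hemin contacts under 3 reads per library cannot be told from none.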

Other observations

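Of the 2064 coding genes that met a member, 720 (34.9%) had no hemin region at all. The share over all coding genes is not given here, so the count says nothing particular about the members. Among the 720 were HBE1 and HBG2, which share the same 2 members, and ACO1, ETV6 and PCDH7. SIRT7 and KLF1, short genes with 1 and 2 EcoRI sites, were among them too. In LRRC4C, a synaptic adhesion gene with 6 members, summed RPM were 1423 and 1458 in untreated cells and 87.5 and 84.1 after hemin, although it held 4 hemin-only regions and its members had 3815 and 3203 of 45137 and 49580 untreated reads. LRRTM4 had 2 members and 92.8 and 84.6 against 16.4 and 15.7. Every value here is a description of regions selected on these libraries, and none was tested.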
